A study of Mus musculus with 14 samples.

Results

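The genes described here lie on mouse chromosome 5 with their midpoint in the 5 Mb that end at 120 Mb (mm10), and each had 10 or more counts in at least 7 of 14 mice. Of 24421 genes in the counts table, 57 lay in this stretch and 45 met the count minimum, reaching from Sppl3 (start at 115011524) to Tbx3 (end at 119684724). The stretch was chosen by the difference between the genotypes in these same mice, so that the fold changes of its genes and the number of genes called are descriptions and test nothing about the stretch. RNA was sequenced from hippocampi (by the labels and methods, though the dentate gyrus alone is named in the results of the study) of naive, untreated male mice of the strain label 129.C57Bl6, 7 labelled LPAR2-/- and 7 labelled WT. LPAR2-/- mice lack part of exon 2 of Lpar2, the gene of a receptor for lysophosphatidic acids. They were kept as a homozygous colony beside a control colony of a mixed C57BL/6 and 129/SvJ background, so that genotype and colony cannot be told apart. Their age is uncertain, since it is 10 to 12 weeks by the labels and middle-aged to aged by the description of the series. Lpar2 lies on chromosome 8 and is not linked to chromosome 5.

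The stretch is defined by position and not by function. It holds genes of neuronal calcium, nitric oxide and kinase signalling (Nos1, Cabp1, Tesc, Ksr2, Cit), of energy metabolism (Prkab1, Sirt4, Cox6a1, Acads), of translation (Rplp0, Gcn1l1), of splicing (Srrm4, Srsf9), of transcription (Med13l, Suds3, Tbx3) and of protein folding and turnover (Hspb8, Fbxo21, Rnf10). In the hippocampus, nitric oxide made by the product of Nos1 is a diffusible messenger, and Srrm4 sets the neuronal splicing of very short exons. AMP-activated kinase, of which Prkab1 encodes a subunit, senses a lack of cellular energy.

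Libraries held 15434620 to 23258949 counts. Members took 0.289 to 0.309% of these counts in mice labelled LPAR2-/- and 0.303 to 0.317% in WT mice. Lpar2 itself was higher in the libraries labelled LPAR2-/-, at 9.55 ± 1.41 CPM (counts relative to the TMM-scaled library total, SD, n = 7) against 2.36 ± 0.676 CPM in WT mice (SD, n = 7), a log2 fold change of 2.01 (SE 0.157, edgeR quasi-likelihood test, adjusted p = 8.22e-07). Exons outside the deleted part are counted too, so this total does not check the labels, and every direction below is that of the mice as labelled. The ranges of the summed CPM of 14 marker lists of cell types and regions overlapped between the genotypes, and of their genes only 1 of the 4 meningeal markers was called (higher). Medians still differed in both directions (mice labelled LPAR2-/- against WT mice). They were 71.1 against 36.9 CPM for meninges, 43.9 against 37.5 CPM for striatum and 100 against 110 CPM for CA1. Markers of the dentate gyrus, CA1 and CA3 of the hippocampus were present in every mouse. Single libraries stood apart. Choroid plexus markers reached 283.7 CPM in mouse 2 labelled LPAR2-/- against 24.6 to 49.3 CPM in the other 13 mice, where 2 of its 4 markers had under 10 counts in most mice. Oligodendrocyte markers reached 3319 CPM in mouse 3 labelled LPAR2-/- against 815 to 1729 CPM in the others. CA1 markers reached 323 CPM in WT mouse 2 against 81.7 to 165 CPM in the others. Dentate gyrus markers (Prox1, C1ql2, Dsp) were highest in mice 6 and 7 labelled LPAR2-/-, at 544 and 547 CPM against 331 to 487 CPM in the others. The haemoglobin genes Hba-a1 and Hbb-bs were listed at 0, so that the blood list rested on Alas2 alone. In bulk tissue, fewer cells of a type and less RNA per cell cannot be told apart.

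Of the 45 members, 44 passed the filter on low counts and were tested within a fit over 14897 genes. Of these, 12 (27.3%) were called at an adjusted p under 0.05, beside 6.77% of all genes tested. 3 members were called higher in mice labelled LPAR2-/-, beside 3.32% of all genes, and 9 were called lower, beside 3.46% of all genes. Because this contrast chose the stretch, nothing is read from these counts. Under upper quartile normalization, 4 members were called higher and 6 lower, while over all genes the split moved from 494 higher and 515 lower to 616 higher and 377 lower. Without mouse 1 labelled LPAR2-/- or without WT mouse 4, 7 members were called, beside 4.09% and 4.47% of all genes. Changes were small: the called members had a median absolute log2 fold change of 0.29, against 0.31 over all called genes. The median log2 fold change of the tested members was -0.062, against 0.0029 over all genes, and 32 of 44 lay below 0 (26 of 44 under upper quartile normalization), against 48.9% of all genes.

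**Figure D1:**
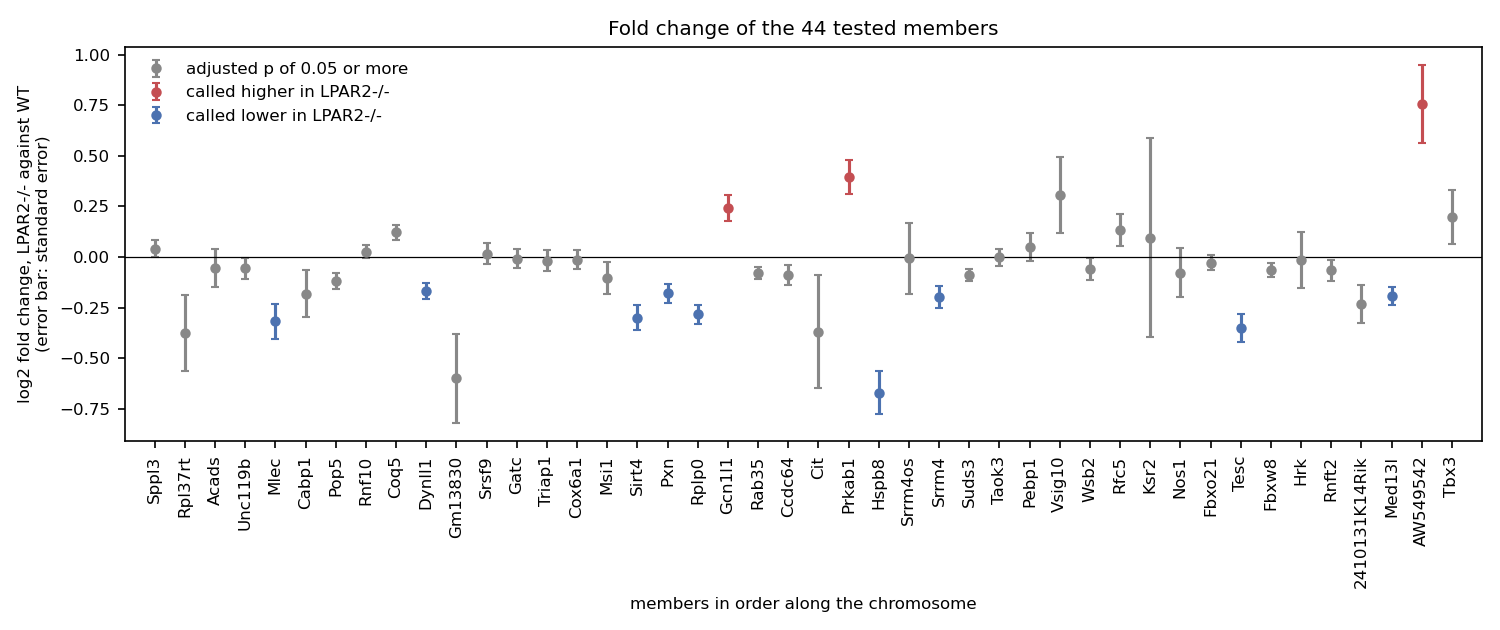
Log2 fold change of the 44 tested members (y axis, mice labelled LPAR2-/- against WT mice, error bars are standard errors of the edgeR fit) in their order along the chromosome (x axis). The 3 members called higher are red, the 9 called lower are blue, and the remaining 32 are grey.

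Hspb8 and Rplp0 had the smallest adjusted p-values, and at both genes the mice of the genotypes did not overlap. Hspb8, which encodes a small heat shock protein that acts with Bag3 in the removal of misfolded proteins, lies at chr5:116408491-116422864. It ranged from 9.12 to 15.7 CPM (median 11.8) in mice labelled LPAR2-/- and from 16.7 to 23.6 CPM (median 18.8) in WT mice. Every mouse labelled LPAR2-/- was below every WT mouse. This is the largest decrease among the members, a log2 fold change of -0.67 (SE 0.107, edgeR, adjusted p = 0.00191). Rplp0, which encodes a protein of the ribosomal stalk and is often used as a reference gene in PCR, lies at chr5:115559467-115563729. It ranged from 59.6 to 71.2 CPM (median 62.3) in mice labelled LPAR2-/- and from 72.9 to 88.0 CPM (median 77.0) in WT mice, again without overlap. Its log2 fold change was -0.28 (SE 0.0486, edgeR, adjusted p = 0.00287). Reads of Rplp0 that also match processed copies elsewhere in the genome were left out by the counting, so its level is uncertain. At 1 further member, which was not called, the groups did not overlap either. Suds3, a subunit of the Sin3 corepressor complex, ranged from 92.2 to 103 CPM in mice labelled LPAR2-/- and from 104 to 108 CPM in WT mice (log2 fold change -0.088, SE 0.0302, edgeR, adjusted p = 0.0925). Over all genes tested, the groups did not overlap at 1.77%, and among the members at 6.82%.

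Prkab1 had the smallest adjusted p-value among the members called higher. It encodes the beta 1 subunit of AMP-activated kinase and lies at chr5:116013590-116024428. It ranged from 13.6 to 16.9 CPM (median 15.8) in mice labelled LPAR2-/- and from 9.97 to 14.5 CPM (median 11.4) in WT mice. WT mouse 7, at 14.5 CPM, was the only WT mouse above the lowest mouse labelled LPAR2-/-. In the fit, Prkab1 rose by a log2 fold change of 0.39 (SE 0.0842, edgeR, adjusted p = 0.0121). Prkab1 and Hspb8 follow each other on the same strand among the members, and they were called in opposite directions.

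The promoters of these 3 genes are shown because their calls were the ones with the smallest adjusted p-values in each direction. The sequences are from RefSeq (GRCm38.p6, the build of the mm10 assembly), run 5′ to 3′ on the strand of the gene and reach from 250 bases before to 50 bases after its start. They lie at chr5:116422815-116423114 (minus strand), chr5:115559217-115559516 (plus strand) and chr5:116024379-116024678 (minus strand). Capitals mark matches to the searched motifs, the cAMP response element TGACGTCA, its core TGACG, the E-box CACGTG and TATAAA, each on both strands, where the core is part of the full element.
Hspb8: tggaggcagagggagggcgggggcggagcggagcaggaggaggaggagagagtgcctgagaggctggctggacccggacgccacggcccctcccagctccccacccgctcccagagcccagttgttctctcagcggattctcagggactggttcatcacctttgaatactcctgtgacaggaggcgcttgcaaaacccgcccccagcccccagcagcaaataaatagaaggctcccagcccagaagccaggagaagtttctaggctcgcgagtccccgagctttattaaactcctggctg
Rplp0: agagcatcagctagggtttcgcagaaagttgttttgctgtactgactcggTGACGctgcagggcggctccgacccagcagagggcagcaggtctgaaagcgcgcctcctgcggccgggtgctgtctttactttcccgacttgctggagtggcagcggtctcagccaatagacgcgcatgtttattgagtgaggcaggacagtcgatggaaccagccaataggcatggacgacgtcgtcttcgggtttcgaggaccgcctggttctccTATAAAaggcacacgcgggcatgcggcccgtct
Prkab1: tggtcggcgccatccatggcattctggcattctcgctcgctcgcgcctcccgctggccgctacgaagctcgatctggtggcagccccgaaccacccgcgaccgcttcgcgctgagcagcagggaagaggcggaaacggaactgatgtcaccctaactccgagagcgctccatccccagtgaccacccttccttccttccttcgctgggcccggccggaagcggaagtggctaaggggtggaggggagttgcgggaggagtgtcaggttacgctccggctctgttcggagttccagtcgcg
Only the promoter of Rplp0 held any of these motifs, a TGACG core upstream and TATAAA just after the annotated start. The promoter of Hspb8 had a GC share of 62.3% and an observed over expected ratio of CpG of 0.45, against 59.0% and 0.93 at Rplp0 and 65.3% and 0.94 at Prkab1.

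RefSeq promoters were found for 37 of the 45 members, with 39 entries. Their median GC share was 67.7%, against 52.7% over all 32851 promoter entries, and their median CpG ratio was 0.847, against 0.384. Promoters of members called lower (8 entries, median GC share 67.7%), called higher (2 entries, 68.3%) and not called (29 entries, 67.7%) were alike in this share. The core TGACG was present in 3 of 8 promoters of members called lower, in neither of the 2 promoters of members called higher and in 9 of 29 promoters of the other members, against 20.8% of all promoters. The full element was in 0 of 39 member promoters (1.79% of all), the E-box in 3 of 39 (7.15% of all), and TATAAA in 3 of 39 (13.6% of all). All promoters include those of genes not expressed in this tissue.

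Among the 9 members of neuronal signalling, 2 were called lower and none higher, and their median log2 fold change was -0.10. Over all genes tested, 3.46% were called lower and 3.32% higher, the shares to set beside the counts in this and the following lists. Tesc encodes tescalcin, a calcium-binding protein. It ranged from 24.8 to 34.3 CPM (median 30.2) in mice labelled LPAR2-/- and from 33.7 to 42.7 CPM (median 40.1) in WT mice. The groups overlapped only through 1 mouse of each genotype, at 34.3 and 33.7 CPM. Tesc had a log2 fold change of -0.35 (SE 0.0705, edgeR, adjusted p = 0.00810). Srrm4 encodes a splicing factor of neurons. It ranged from 78.3 to 96.3 CPM (median 87.4) in mice labelled LPAR2-/- and from 87.1 to 111 CPM (median 98.2) in WT mice, with a log2 fold change of -0.20 (SE 0.0552, edgeR, adjusted p = 0.0407). Its groups overlapped through 4 mice labelled LPAR2-/- and 3 WT mice, and the call was lost in 12 of 14 fits that left out 1 mouse (highest adjusted p = 0.0933). Its exons share 68 bases with those of the antisense transcript Srrm4os, which was counted by strand and did not pass the threshold (log2 fold change -0.0053, edgeR, adjusted p = 0.999).

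The other 7 members of this list did not pass the threshold. Nos1, the neuronal nitric oxide synthase, ranged from 123 to 204 CPM in mice labelled LPAR2-/- and from 139 to 217 CPM in WT mice (log2 fold change -0.077, SE 0.122). Cabp1, a calcium-binding protein that modulates calcium channels, ranged from 30.9 to 49.7 CPM against 40.2 to 59.7 CPM (-0.18, SE 0.115). Pebp1, an inhibitor of the kinase Raf, was at 0.050 (SE 0.0689). Ksr2, a scaffold of the Raf, MEK and ERK kinases, had the widest error of all members, at 0.096 (SE 0.492), followed by Cit, the citron kinase, at -0.37 (SE 0.282). Msi1, an RNA-binding protein of neural stem cells, was at -0.10 (SE 0.0792) and Hrk, a protein that promotes apoptosis, at -0.013 (SE 0.139).

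Among the 8 members listed as kinases and signalling adaptors, Prkab1 was called higher and Pxn lower. Pxn encodes paxillin, an adaptor of focal adhesions. It ranged from 54.8 to 67.0 CPM (median 63.2) in mice labelled LPAR2-/- and from 65.9 to 76.7 CPM (median 72.1) in WT mice. One mouse labelled LPAR2-/- (mouse 5) lay above the lowest WT mouse. Its log2 fold change was -0.18 (SE 0.0464, edgeR, adjusted p = 0.0291), and the call was lost in 5 of 14 fits without 1 mouse, at an adjusted p of up to 0.0640. Rab35, a small GTPase of endosomal recycling, was at -0.080 (SE 0.0300, adjusted p = 0.122), and Taok3, a kinase, was at -0.0020 (SE 0.0428), with 73.8 to 83.3 CPM against 68.4 to 82.8 CPM.

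Among the 7 members listed under mitochondria and metabolism, 2 were called lower and none higher, the mitochondrial Sirt4 and Mlec, whose product is not mitochondrial. Sirt4, a mitochondrial sirtuin, ranged from 21.6 to 23.8 CPM (median 23.3) in mice labelled LPAR2-/- and from 23.1 to 31.6 CPM (median 28.9) in WT mice. WT mouse 1 was within the range of the mice labelled LPAR2-/-, and the other 6 WT mice lay above it. Sirt4 had a log2 fold change of -0.30 (SE 0.0615, edgeR, adjusted p = 0.00913). Mlec encodes malectin, a sugar-binding protein of the endoplasmic reticulum. It ranged from 124.9 to 188 CPM (median 154) in mice labelled LPAR2-/- and from 166 to 224 CPM (median 186) in WT mice, with a log2 fold change of -0.32 (SE 0.0861, edgeR, adjusted p = 0.0377). Mouse 3 labelled LPAR2-/- lay within the WT range, the others below it. The call was lost in 11 of 14 fits without 1 mouse (highest adjusted p = 0.0841) and under upper quartile normalization (adjusted p = 0.0544). Coq5, an enzyme of ubiquinone synthesis, did not pass the threshold at 0.12 (SE 0.0365, adjusted p = 0.0537), with 41.3 to 44.7 CPM against 37.3 to 41.9 CPM. It was called higher in 2 of 14 fits without 1 mouse and in 4 of 8 other alternatives. These included upper quartile normalization (edgeR, adjusted p = 0.0246). The other 4, Acads, Gatc, Triap1 and Cox6a1, had log2 fold changes from -0.053 to -0.0073, of which Gatc, Triap1 and Cox6a1 changed sign under upper quartile normalization.

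Among the 6 members of RNA processing and translation, Gcn1l1 was called higher, and Rplp0 and Srrm4 were called lower. Gcn1l1 (now Gcn1) encodes an activator of the kinase that slows translation when amino acids are scarce. Its values in mice labelled LPAR2-/- were 171.7, 173, 165, 166, 165, 139 and 123 CPM in mice 1 to 7, against 128 to 146 CPM (median 132) in WT mice. Thus 5 mice labelled LPAR2-/- lay above every WT mouse, mouse 6 lay within the WT range and mouse 7 below it. For Gcn1l1 the log2 fold change was 0.24 (SE 0.0664, edgeR, adjusted p = 0.0376). Without mice 6 and 7, it was 0.34, a larger value that follows from leaving out the lowest 2 mice of the genotype. The call was lost in 10 of 14 fits without 1 mouse (highest adjusted p = 0.0820). Pop5, a subunit of RNase P, was at -0.12 (SE 0.0407, adjusted p = 0.0963), and Srsf9, a splicing factor, at 0.016 (SE 0.0526).

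Among the 3 members of transcription and chromatin, Med13l was called lower. It encodes a subunit of the kinase module of Mediator and ranged from 119.2 to 129 CPM (median 123) in mice labelled LPAR2-/- and from 124.9 to 158 CPM (median 139) in WT mice. WT mouse 1 was within the range of the mice labelled LPAR2-/-, and the other 6 WT mice lay above it. For Med13l it was -0.19 on the log2 scale (SE 0.0443, edgeR, adjusted p = 0.0168). Tbx3, a T-box repressor, was at 0.20 (SE 0.133) with 3.17 to 5.25 CPM against 2.79 to 4.22 CPM, while its neighbour Tbx5 had at most 2 counts in any mouse.

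Among the 7 members of protein turnover, folding and transport, Hspb8 and Dynll1 were called lower and none higher. Dynll1 encodes a light chain of dynein that also binds many other proteins. It ranged from 125.2 to 149 CPM (median 135) in mice labelled LPAR2-/- and from 141 to 162 CPM (median 154) in WT mice. Mouse 2 labelled LPAR2-/- was the only one above the lowest WT mouse. Dynll1 had a log2 fold change of -0.17 (SE 0.0413, edgeR, adjusted p = 0.0232). The ubiquitin ligase genes Rnf10, Fbxo21, Fbxw8 and Rnft2 and the SOCS box gene Wsb2 had log2 fold changes from -0.065 to 0.025, and none was called. Rnf10 had the highest mean count of the members, with 243 to 271 CPM over all mice. Rfc5, a subunit of the clamp loader of DNA replication, was at 0.13 (SE 0.0774).

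Of the 8 members in none of these lists, AW549542 was called higher. This long noncoding RNA had the largest fold change of the members in the edgeR fit, with 1.54 to 2.72 CPM (median 2.24) in mice labelled LPAR2-/- and 0.682 to 1.70 CPM (median 1.37) in WT mice. These values rest on 11 to 58 counts per mouse, and mouse 2 labelled LPAR2-/- lay within the WT range. The log2 fold change was 0.76 (SE 0.192, edgeR, adjusted p = 0.0268), but 0.38 in limma with a pseudocount of 1, below the size of the change of Hspb8, and the call was lost in 5 of 14 fits without 1 mouse (highest adjusted p = 0.0619). Of its exon bases, 99.8% lie within exons that GENCODE M21 assigns to Tbx3os1 on the same strand. The noncoding RNA Gm13830 was at -0.60 (SE 0.221, adjusted p = 0.117) with 10 to 50 counts per mouse. Without mouse 3 labelled LPAR2-/-, it was at -0.80 and was called (edgeR, adjusted p = 0.0236), the only such fit of 14 in which it was. Rpl37rt, annotated as a copy of a ribosomal protein gene, was at -0.38 (SE 0.189) with 9 to 25 counts, and its level is uncertain since reads matching several places were left out. 2410131K14Rik (now Spring1, a regulator of sterol synthesis) was at -0.23 (SE 0.0926, adjusted p = 0.147), Vsig10 at 0.31 (SE 0.187) and Sppl3 at 0.041 (SE 0.0422). 1110006O24Rik, with 6 to 16 counts, was a member but was not tested.

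**Figure D2:**
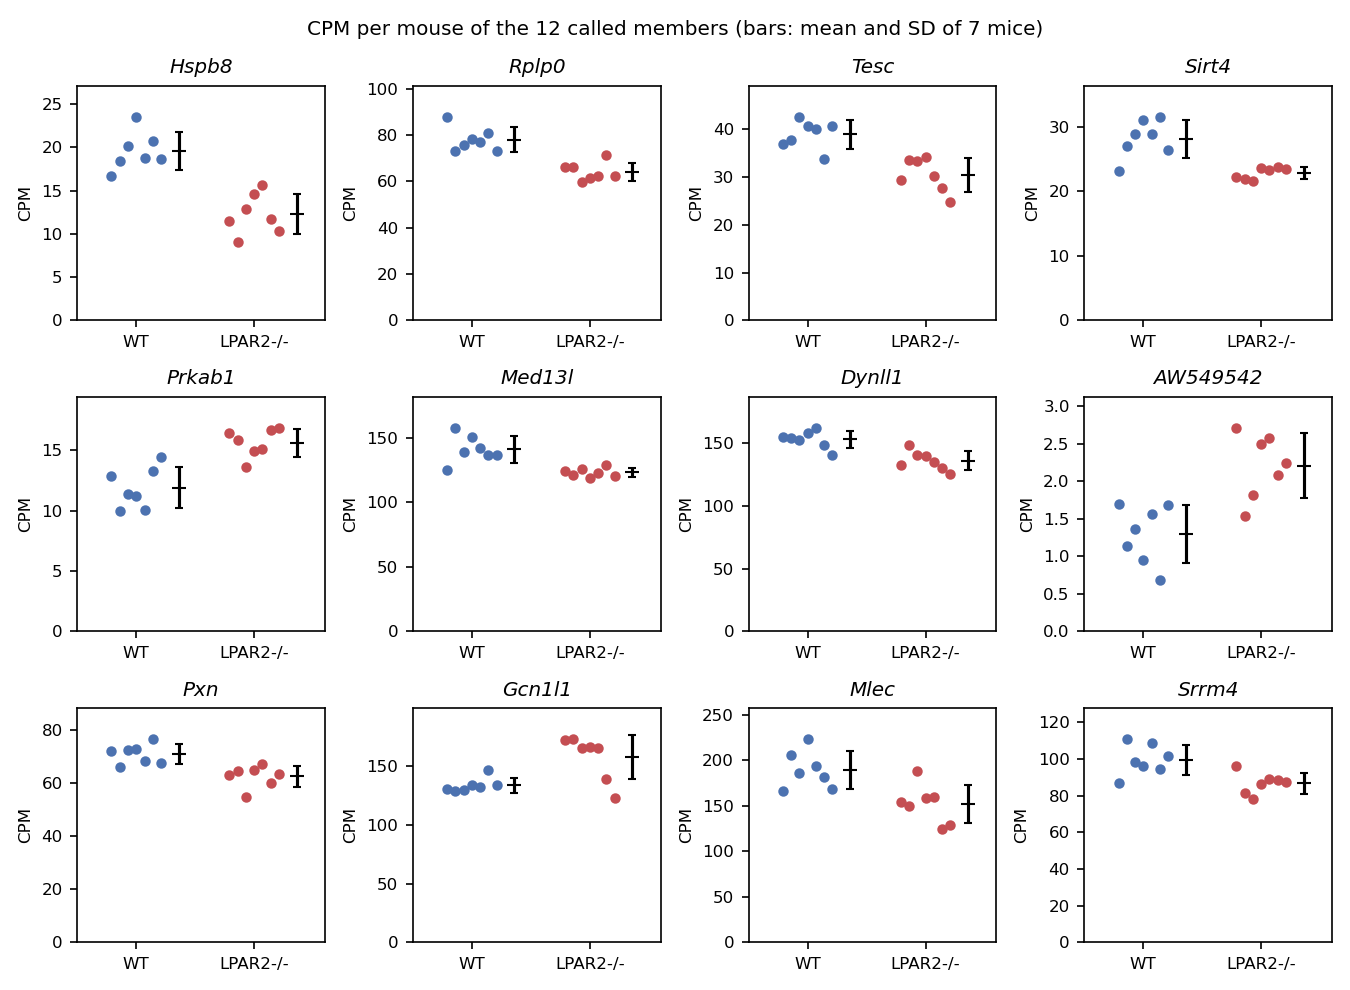
CPM (y axis, from 0) of the 12 called members in each of 7 WT mice (blue) and 7 mice labelled LPAR2-/- (red), with the mean and SD of each genotype in black. The genotypes do not overlap at Hspb8 and Rplp0, and at the other 10 members at least 1 mouse lies within the range of the other genotype.

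For each mouse, called members were counted at which it lay nearer to the mean of the other genotype than to that of its own. In mice labelled LPAR2-/-, this was the case at 1 or 2 of the 12 members, with Gcn1l1 in both mice 6 and 7. WT mouse 1 was nearer to the mice labelled LPAR2-/- at 5 members (Mlec, Sirt4, Srrm4, Med13l, AW549542) and WT mouse 7 at 4 (Mlec, Dynll1, Prkab1, AW549542), while WT mice 3, 4 and 5 were so at 0. Without WT mouse 1, 13 members were called, beside 9.26% of all genes, and without WT mouse 7, 10 were, beside 6.73%.

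Mice 6 and 7 labelled LPAR2-/- stood apart at many members, called and not called. These mice had the lowest 2 values of their genotype at 13 of the 44 tested members and the highest 2 at 6, and at 11 members both lay below the other 12 mice. Among the 12 called members, both lay below all other mice at Mlec, Dynll1 and Tesc and above them at Prkab1, and were the lowest of their genotype at Gcn1l1. Ksr2 was at 1.49 and 1.02 CPM in these mice, against 3.69 to 16.3 CPM in the other 5 mice of the genotype and 3.16 to 10.1 CPM in WT mice. Cit was at 5.55 and 5.76 CPM, against 11.1 to 20.9 and 14.5 to 25.3 CPM. Nos1 was at 128 and 123 CPM, against 164 to 204 and 139 to 217 CPM. Hrk went the other way, at 209.6 and 211 CPM, against 114.7 to 159.5 and 113.6 to 181 CPM. Rfc5 was likewise highest in both, at 14.6 and 14.7 CPM, against 10.6 to 12.9 and 10.7 to 11.9 CPM. The same 2 libraries had the highest summed dentate gyrus markers, as given above, and each of the 3 genes of that list was highest in both. Their summed microglia markers were the highest as well (130.8 and 138 CPM, against 105 to 124.9 CPM in the other 12 mice), but of the 3 genes only Cx3cr1 was highest in both, and P2ry12 in mouse 6 and Tmem119 in both lay below another mouse labelled LPAR2-/-. Their summed neuron markers were the lowest (5232 and 5192 CPM, against 5375 to 6727 CPM), but of the 5 genes only Snap25 and Syt1 were lowest in both. Rbfox3 went the other way, at 400.2 and 369 CPM, both above the WT range of 299.5 to 357 CPM. In none of the other 11 lists were both sums the lowest 2 or the highest 2 of all 14 mice. Within their genotype, both were the lowest 2 for thalamus markers, at 26.0 and 29.3 CPM (next 29.9 CPM). The same held for oligodendrocyte precursors (64.84 and 64.7, next 65.15 CPM) and the blood list (1.015 and 1.34, next 1.64 CPM). Libraries 6 and 7 labelled LPAR2-/- were also among the shallowest, with 16663752 and 15434620 counts. WT mice 6 and 7 were shallow too, at 16373410 and 17412871 counts, against 18637753 to 23258949 counts in the remaining mice. The part of tissue composition or depth in the values of mice 6 and 7 labelled LPAR2-/- was not tested. Without both mice, a comparison added after seeing the data, 8 members were called, 3 higher and 5 lower, beside 6.45% of all genes. Hspb8, Rplp0, Tesc, Sirt4, Med13l, Prkab1, Gcn1l1 and AW549542 kept their calls, and Mlec (adjusted p = 0.0867), Dynll1 (0.0722), Pxn (0.0639) and Srrm4 (0.0661) lost theirs in a fit with 2 fewer mice. The log2 fold changes of Srrm4 (-0.20 with and without both mice) and Pxn (-0.18 with and -0.17 without) hardly moved, while those of Mlec (-0.32 with and -0.22 without) and Dynll1 (-0.17 with and -0.13 without) came nearer to 0.

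**Figure D3:**
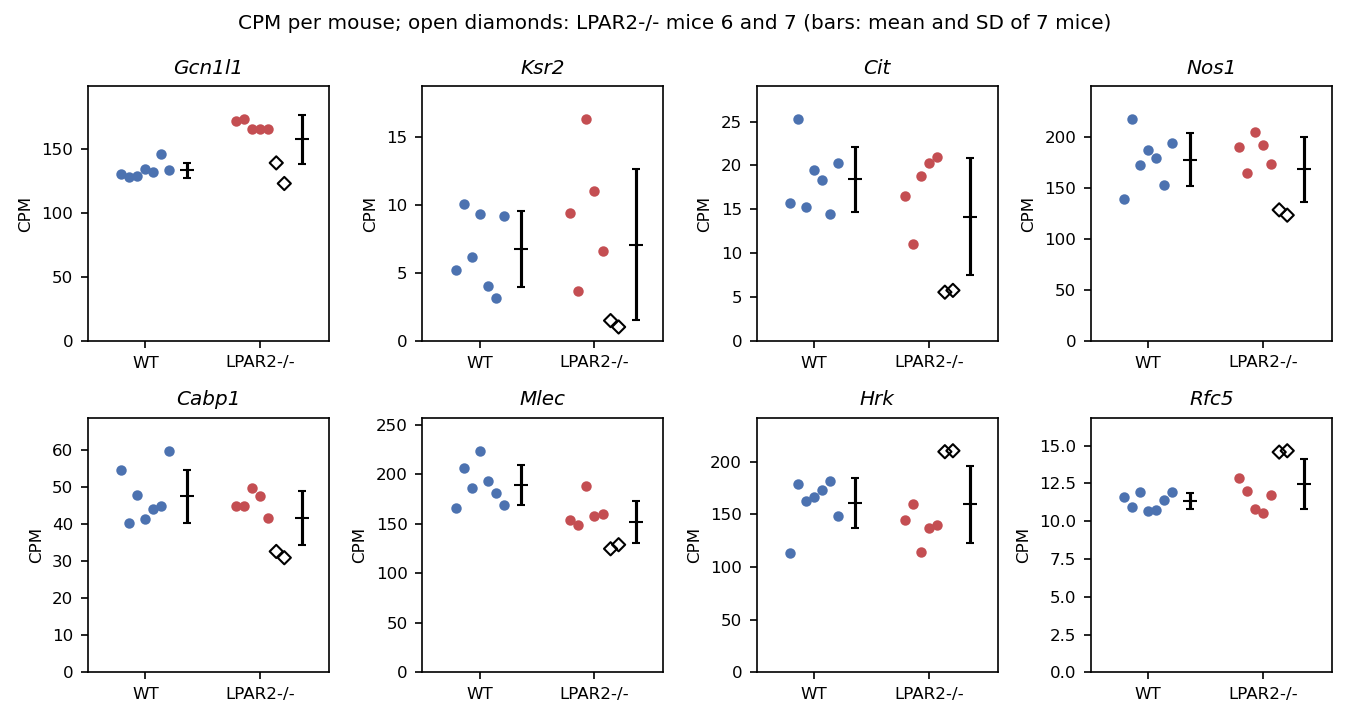
CPM (y axis, from 0) of 8 members in WT mice (blue) and mice labelled LPAR2-/- (red), with mice 6 and 7 of the latter as open diamonds and the mean and SD of all 7 mice in black. These 2 mice are the lowest of their genotype at Gcn1l1, Ksr2, Cit, Nos1, Cabp1 and Mlec and the highest at Hrk and Rfc5.

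After removal of the genotype means, members were compared with each other over the 14 mice, which share libraries and depth, so that the correlations are a description. Over 946 pairs, the median Pearson r was 0.0082. Between the 43 pairs of neighbours it was 0.11, and between the 66 pairs of called members -0.023. Both lay between the quartiles of all pairs (r from -0.26 to 0.32). The highest correlations were between Cit and Ksr2 (r = 0.92), Ksr2 and Nos1 (0.90) and Cit and Nos1 (0.88), the genes that were low in mice 6 and 7 labelled LPAR2-/-. The lowest was between Hrk and Rnft2 (r = -0.87), which are direct neighbours.

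**Figure D4:**
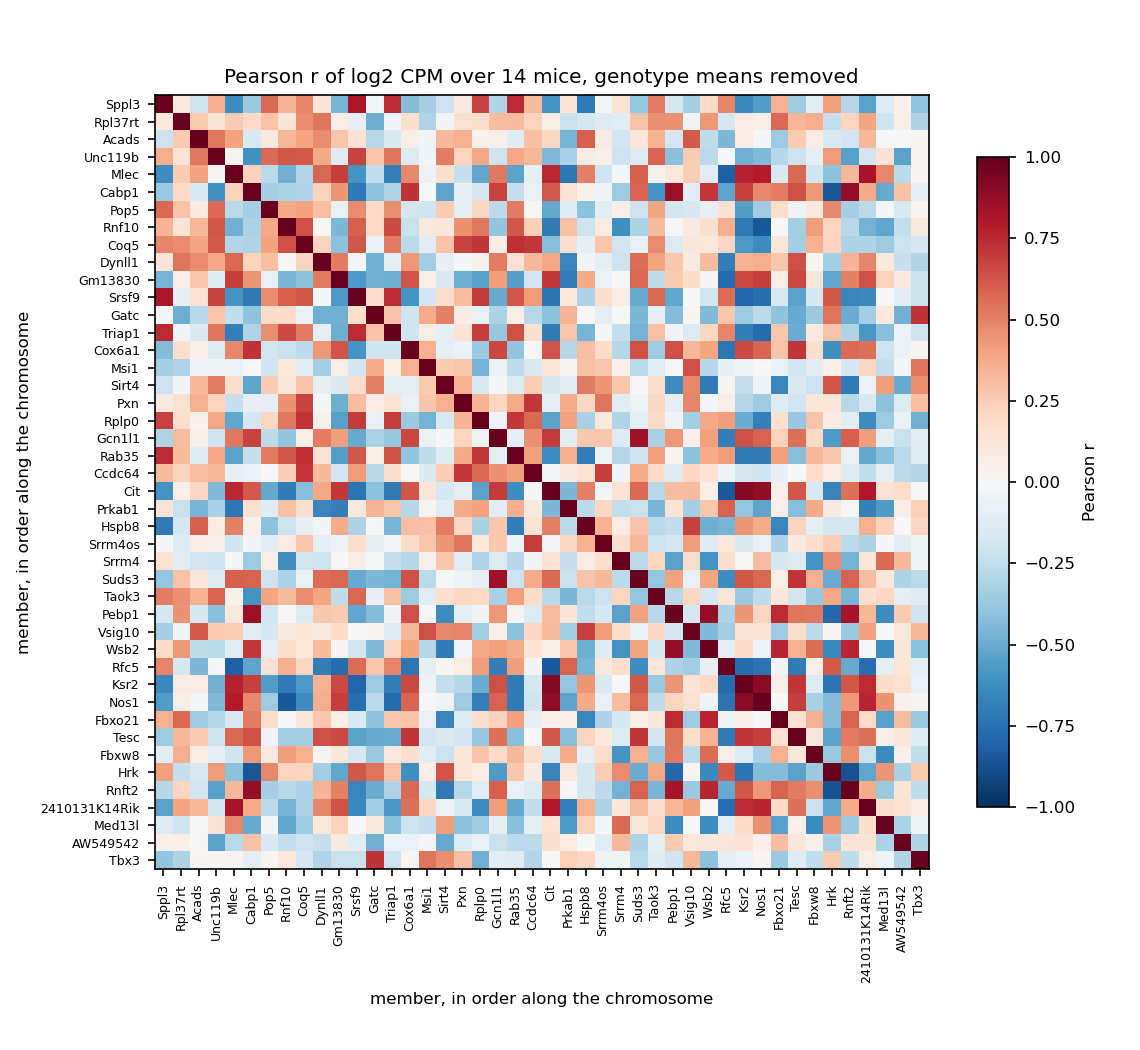
Pearson r of log2 CPM between the 44 tested members over 14 mice after removal of the genotype means (colour, from -1 in blue to 1 in red), with members in their order along the chromosome on both axes. Cit, Ksr2 and Nos1 are correlated with each other (r from 0.88 to 0.92), while pairs of neighbours have a median r of 0.11.

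A pair of divergent neighbours, whose starts face away from each other within a short distance, occurred 4 times among the members. Dynll1 and Gm13830 start 129 bases apart, with log2 fold changes of -0.17 and -0.60, of which only Dynll1 was called (r = 0.52 within genotypes). Gatc and Triap1 start 85 bases apart, with log2 fold changes of -0.0073 and -0.017 (r = 0.28). Rnft2 and 2410131K14Rik start 201 bases apart (-0.065 and -0.23, r = 0.37). The fourth pair was 1110006O24Rik and Rab35 (r = -0.39). Exons of Wsb2 share 20.2% of their bases with Rfc5 on the opposite strand in GENCODE M21, and those of Fbxw8 share 37.1% with the antisense gene Gm9754. The counting used the strand.

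The median level of the members in WT mice was 17.6 CPM per kb of exon, against 8.66 CPM per kb over all genes tested, with a median exon length of 2415 bases against 2955 bases. Per length, Cox6a1, a subunit of cytochrome c oxidase, had the highest level in WT mice (301 CPM per kb), followed by Rnf10 (82.0), Wsb2 (78.0) and Dynll1 (75.7), and Srrm4os the lowest of those tested (0.304). The coefficient of variation between mice had a median of 7.68% in WT mice and 8.09% in mice labelled LPAR2-/- over the members, against 8.74% and 9.54% over all genes. In 25 of 44 members it was larger in mice labelled LPAR2-/-.

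Called members were counted per Mb of the stretch, as a description. Of 23 tested members in the first Mb, 1 was called higher and 5 lower, and of 4 in the second Mb, 1 higher and 2 lower. None of the 9 members in the third Mb was called, with a median log2 fold change of -0.0020. All 6 members in the fourth Mb had fold changes below 0 (Hrk with a changed sign under upper quartile normalization), and 2 were called. In the fifth Mb, 1 of 2 members was called higher. At the lower edge, Sppl3 and Rpl37rt were just inside, and just outside lay 2210016L21Rik (log2 fold change 0.089). At the upper edge, AW549542 and Tbx3 were just inside, and Gm10390 (-0.12) and Rbm19 (-0.064) just outside. With respect to the count minimum, 1110006O24Rik was just inside, with 10 counts in 7 mice, and Ccdc60 just outside, with 10 counts in 5 mice. The other 11 genes of the stretch that were not members, among them Pla2g1b and Tmem233, reached 10 counts in 0 mice.

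The shares of called genes were also taken in other windows of chromosome 5. In the 5 Mb before the stretch, 7 of 70 tested genes (10.0%) were called, and in the 5 Mb after it, 8 of 93 (8.60%), while on chromosome 5 outside the stretch it was 79 of 876 (9.02%). Among 180 windows of 5 Mb with at least 30 tested genes, the stretch had rank 3 in the share of called genes, after 2 windows of chromosome 8, from 70 to 75 Mb (33.3%), next to Lpar2, and from 80 to 85 Mb (28.1%). Rank 4 was also on chromosome 5, the window from 100 to 105 Mb (7 of 30 genes, 23.3%). Next came 2 windows with the same share (7 of 31 each, 22.6%). These were the 5 Mb of chromosome 5 that end at 130 Mb and a window of chromosome 9 starting at 75 Mb. On chromosome 5, a window of 11 tested genes from 85 to 90 Mb had 4 called (36.4%). Since the stretch was selected for this share, its rank is a description.

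**Figure D5:**
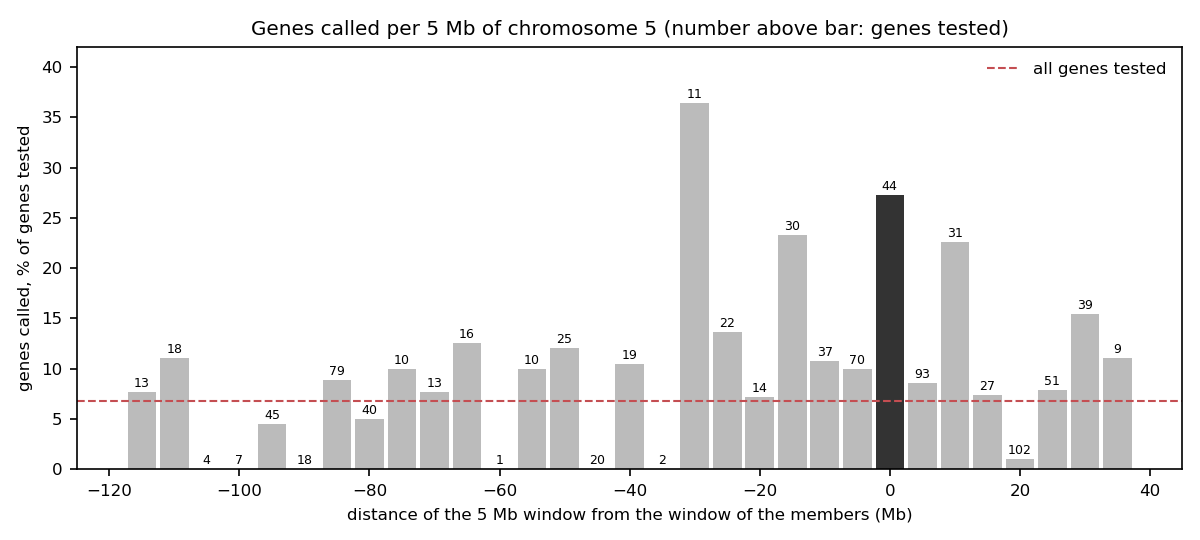
Share of tested genes called at an adjusted p under 0.05 (y axis, percent) in each 5 Mb window of chromosome 5, by its distance in Mb from the window of the members (x axis). The window of the members (dark) has 27.3%, its neighbours 10.0% and 8.60%, and the dashed line marks the 6.77% of all genes tested.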

How the data were processed

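Hippocampal RNA of 7 mice labelled LPAR2-/- and 7 WT mice was sequenced (Illumina) after removal of ribosomal RNA. The deposited counts are whole-number counts of reads on exons per gene. To make them, the authors used cutadapt 1.18 for trimming, STAR for alignment (mm10) and featureCounts 1.6.3 for counting by strand (file header and submitters' processing notes), leaving out reads that matched several places or genes. The other deposited table holds the authors' normalized values, which are counts divided by DESeq2 1.22.2 size factors and gene length. After restoring decimal points and scaling each library by its median ratio, 99.98% of 172913 values matched counts divided by gene length within 1%. Values with few counts were left out of this comparison, and the size factors themselves were not checked. The normalized values were used for an alternative only, and 14 columns of their log2 values were not used. The labels do not say whether litters or batches were shared.

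Counts were analysed in R 4.3.3 with edgeR 4.0.16 (filterByExpr, TMM, robust quasi-likelihood F test, no covariates), with Benjamini-Hochberg adjustment over 14897 genes and a threshold of 0.05. Log2 CPM used a prior count of 2. Alternatives were DESeq2 1.42.0, limma 3.58.1 on normalized values (pseudocounts 1 and 0.01), other normalizations and filters, other bounds of the stretch, the mouse number as a block, and leaving out mice. The procedure was tested on simulated data. The depth of 15434620 to 23258949 counts allows at most 0.129 to 0.194 CPM for a gene with 0 counts (3 counts, counting error only). No 2 mice of a genotype had counts alike within sampling noise (chi-square per degree of freedom at least 3.29 over 42 pairs).

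The members, the lists of genes and the markers were chosen with earlier results of these data known. Lists were fixed by role. Values per mouse are given for called members of these lists and for the largest change in each direction, the others by counts and ranges. Suds3, the divergent pairs and the values of mice 6 and 7 labelled LPAR2-/- were picked after seeing the data. RefSeq names were found for 45 of 45 members. 1 gene outside the stretch is not reported here.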

Additional observations from a re-analysis of the deposited data

Results flagged for a closer look

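In 90 groups of 7 values (45 members in each genotype), 7 had a highest or lowest mouse set apart from the others by more than Dixon's 95% limit for 7 samples, and chance alone gives about 1 in 20. Values are log2 CPM. Unc119b was lowest in WT mouse 7 (5.13, the next 5.35). Srsf9 was also lowest in WT mouse 7 (5.81, the next 5.96). Pop5 was highest in WT mouse 5 (5.93, the next 5.78). Gcn1l1 was highest among WT mice in mouse 6 (7.19, the next 7.07). Fbxw8 was lowest in WT mouse 2 (5.70, the next 5.81). Hrk was lowest in WT mouse 1 (6.83, the next 7.22). Suds3 was lowest in mouse 7 labelled LPAR2-/- (6.53, the next 6.62). Of these 7 members, only Gcn1l1 was called.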

How the results depend on the processing

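Over 23 alternatives, no called member changed its direction. Hspb8, Rplp0, Tesc, Sirt4, Prkab1 and Med13l kept their calls in the 14 fits without 1 mouse. Among the other alternatives, the first 5 of these kept them too, and Med13l lost its call with the mouse number as a block (adjusted p = 0.0560). Dynll1 lost its call in 2 of the 14 fits (highest adjusted p = 0.0550). Gcn1l1 and Srrm4 lost theirs with limma too, Gcn1l1, Srrm4 and Pxn with the block, and Mlec, Pxn and Srrm4 under upper quartile normalization. Without 1 mouse, members called higher ranged from 1 to 4 (1 without mice 1, 4 or 5 labelled LPAR2-/- and without WT mice 2 or 4), members called lower from 6 to 9, and members whose groups did not overlap from 3 to 7 (7 without mouse 2 and 6 without mouse 3 labelled LPAR2-/-, 5 without WT mice 1 or 2), which can only rise when a mouse is left out at fixed scaling and was 1.95 to 3.21% of all genes, against 1.77% with all mice. In these fits, 3.79 to 9.26% of all genes were called. With bounds 1 Mb wider at each end, 6 of 80 tested genes were called higher and 9 lower, and with bounds 1 Mb narrower, 1 of 19 was called higher and 4 lower. Without mice 6 and 7 labelled LPAR2-/-, 5 were called lower. DESeq2 called 14 members, among them Coq5 (adjusted p = 0.0344) and Suds3 (0.0470), and 9.32% of all genes. With a replicate block for the mouse number, 2 members were called higher and 6 lower, and 3.93% of all genes, against 6.77% without it. Same-numbered mice deviated together in 3 of 7 pairs (r from -0.33 to 0.31). These 7 values cannot show whether same-numbered mice shared a litter or batch, which was not tested.

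Direction changed only for members that were not called, whose fold changes were near 0 or, for Ksr2, had a wide error. Under upper quartile normalization, log2 fold changes were 0.013 for Gatc, 0.0026 for Triap1, 0.0068 for Cox6a1, 0.015 for Srrm4os, 0.018 for Taok3 and 0.0059 for Hrk. Ksr2 was at -0.044 and -0.34 with limma (pseudocounts 1 and 0.01) and at -0.13 with the replicate block. Without mice 6 and 7 labelled LPAR2-/-, Srsf9 was at -0.040, Cox6a1 at 0.040, Srrm4os at 0.011 and Nos1 at 0.062. Without 1 mouse, Cox6a1 ranged from -0.036 to 0.011, Gatc from -0.030 to 0.019, Hrk from -0.092 to 0.053, Ksr2 from -0.26 to 0.28, Srrm4os from -0.089 to 0.068, Srsf9 from -0.020 to 0.047, Taok3 from -0.032 to 0.012 and Triap1 from -0.038 to 0.0026. The cause was not tested. Depth limits the 4 tested members with fewest counts, Rpl37rt, Srrm4os, Gm13830 and AW549542, at 9 to 58 counts per mouse.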
